A study of Mus musculus with 8 samples.

Results

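The genes described here are 40 genes that lie beside the metallothionein genes Mt1 and Mt2 on mouse chromosome 8, from Chd9 on one side to Got2 on the other. They were chosen by symbol, with earlier results of these data known. Every probe set whose platform annotation gives one of these symbols and no other was taken. This found 36 genes with 77 probe sets among 18193 named genes on the array. Of these, 35 genes with 58 probe sets were bright enough to be tested, 14 genes before the metallothionein cluster in gene order and 21 after it. Nlrc5 was on the array but below the limit, Cnot1 was represented only by 2 probe sets that also carry another symbol, and no probe set was named for Rpgrip1l, Cetp or Mmp15. The 19 probe sets left untested reached at most 86.7 in deposited intensity and the 51.9th percentile of their array.

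Hearts of male mice aged 6 to 8 weeks were profiled on 8 single-colour Affymetrix arrays, 2 for each combination of genotype and treatment. The genotypes were MT+/+ (wild type) and MT-/- (labelled as lacking metallothionein I and II). Each mouse received doxorubicin (DOX, an anthracycline anticancer drug that can damage the heart) once at 15 mg/kg into the peritoneum, or saline, and hearts were collected on day 4. The labels call the 2 arrays of a group biological replicates. They do not say whether an array held 1 heart or a pool, and p-values measure only the spread between these samples. The allele of the MT-/- mice and the strain of either genotype were not stated in the labels. In whole hearts, fewer cells of a type and less RNA per cell cannot be told apart.

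Metallothioneins are small cysteine-rich proteins that bind zinc and copper and scavenge oxidants, and their genes are switched on by metal through the factor MTF1. A knockout made by gene targeting in embryonic stem cells alters 1 locus, but mice bred from such cells can also carry donor-strain chromosome on both sides of it, so neighbouring genes are commonly inspected in comparisons of a knockout with a wild type. Which chromosome these mice carried was not tested. The question here was whether the neighbours of Mt1 and Mt2 differed between arrays labelled MT-/- and MT+/+, under saline and under DOX, and how that compared with other genes.

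The targeted locus itself was read first. On the Mt1 probe set 1422557_s_at the deposited intensity under saline was 3722 and 4034 in MT+/+ against 4667 and 5322 in MT-/-, and under DOX 6735 and 9285 against 12549 and 12849.8. This signal was not lower on the arrays labelled MT-/-, and averaged over treatments it was higher by 0.50 ± 0.09 (log2, SE; limma, Benjamini-Hochberg adjusted p = 0.0425). By Affymetrix naming, the _s_at ending of 1422557_s_at means that it can also hybridise with other transcripts. The dim second Mt1 probe set, 1451612_at, read 63.4 to 103 on all arrays and differed by -0.09 ± 0.11 (limma, adjusted p = 0.784). The Mt2 probe set differed by 0.58 ± 0.21 (adjusted p = 0.301). No source used here says which part of either gene was altered, so these probe sets do not check the labels, and MT-/- below means the arrays so labelled. Array medians were 80 to 87.4, and arrays of 1 group correlated at 0.976 to 0.984. All 6 cardiomyocyte markers were at or above the 97.2th percentile of every array, and none differed by genotype.

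Of the 35 tested neighbours, 3 differed between genotypes averaged over treatments. Ndrg4 was lower, at -2.81 and -3.10 log2 units on its 2 probe sets, Irx3 was lower, at -1.12, and Mmp2 was higher by 1.0 on the arrays labelled MT-/-. These genes were read by 5 of the 58 probe sets tested, or 8.62%, where 0.905% of all 24751 tested probe sets passed the same limit (limma, adjusted p under 0.05). Among these calls 2 read higher in MT-/- and 3 lower. Without Ndrg4 the share was 3 of 56, or 5.36%. Because the list was chosen with earlier results of these data known, these shares describe it and test nothing. Most neighbours stayed near 0. The median difference over the 58 probe sets was -0.02, against 0.00 over all tested, and the median size was 0.13 against 0.10. Before rounding, a difference of at least 1 log2 unit in size was reached by 3 member probe sets (5.17%), those of Ndrg4 and Irx3, and by 0.388% of all, with Mmp2 just under it. An unadjusted p under 0.05 was found for 13 of 58 member probe sets (22.4%), against 13% of all.

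**Figure D1:**
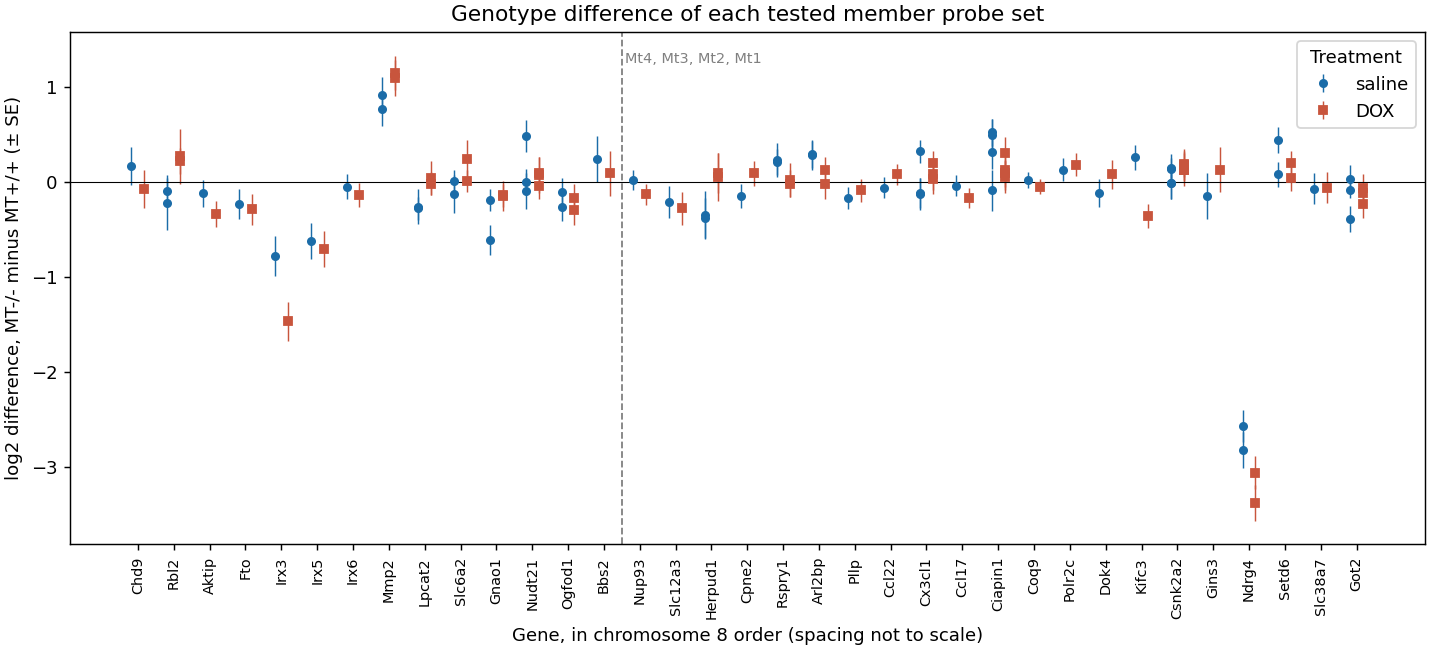
MT-/- minus MT+/+ (log2) for the tested neighbours in gene order on chromosome 8, 1 point per probe set with bars of 1 SE, under saline (circles) and under DOX (squares). Ndrg4 lies between -2.57 and -3.38, Irx3 and Irx5 lie below 0 and Mmp2 lies between 0.77 and 1.15, while Bbs2 and Nup93, next to the metallothionein cluster, lie between -0.13 and 0.24.

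Ndrg4, a cytoplasmic protein of the N-myc downstream-regulated family made mainly in heart and brain, showed the widest difference. On probe set 1426615_s_at the deposited intensity was 3254 and 3674 with MT+/+ saline and 532 and 676 with MT-/- saline. After DOX it was 2801 and 2201 in MT+/+ and 253 and 329 in MT-/-. Every MT-/- array was below every MT+/+ array, and the brightest MT-/- array was dimmer than the dimmest MT+/+ array. The fitted difference was -2.57 ± 0.17 under saline (5.94-fold, adjusted p = 0.000698) and -3.06 ± 0.17 under DOX (8.33-fold, adjusted p = 0.000226), by limma.

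The other Ndrg4 probe set, 1436188_a_at, read 2341 and 2838 with MT+/+ saline against 323 and 442 with MT-/- saline, and 2226 and 1673 with MT+/+ DOX against 164 and 181 with MT-/- DOX. Its groups did not overlap either. Its difference was -2.82 ± 0.19 under saline (7.07-fold) and -3.38 ± 0.19 under DOX (10.4-fold), with the same adjusted p-values as the first. Averaged over treatments, the differences of -3.10 and -2.81 ranked 1 and 3 in size among all tested probe sets (limma, adjusted p = 2.02e-05 for each). By Affymetrix naming, a probe set ending in _s_at can also hybridise with other transcripts, while one ending in _a_at reads transcripts of 1 gene.

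Ndrg4 also fell after DOX. Averaged over genotypes the change was -0.73 ± 0.12 on 1426615_s_at (adjusted p = 0.00653) and -0.74 ± 0.13 on 1436188_a_at (adjusted p = 0.00841). On 1426615_s_at the change was -0.48 in MT+/+ (adjusted p = 0.202) and -0.97 in MT-/- (adjusted p = 0.0153). The difference between these changes, -0.49 ± 0.25, did not pass the test (limma, adjusted p = 1).

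Promoter sequence was read from RefSeq on GRCm38.p6, in windows of 250 bases before to 50 after each start. The Ndrg4 upstream stretch at chr8:95678022-95678271 on the + strand is shown because this gene had the widest difference and 1 of its 4 windows matches the core of the metal response element, the sequence MTF1 binds. Capitals mark the upstream match, on the opposite strand, 39 to 33 bases before the start. A second match in this window, on the + strand at bases 30 to 36 from the start, lies beyond the stretch shown.
Ndrg4: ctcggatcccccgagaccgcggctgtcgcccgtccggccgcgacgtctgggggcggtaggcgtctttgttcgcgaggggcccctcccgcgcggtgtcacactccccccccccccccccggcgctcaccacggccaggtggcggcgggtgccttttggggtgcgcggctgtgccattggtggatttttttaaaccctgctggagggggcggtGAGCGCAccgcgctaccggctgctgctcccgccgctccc
The core was searched on both strands as TGCACNC or TGCGCNC. It was present in 9 of 38 windows of the listed genes (23.7%) and in 25.7% of all 32851 RefSeq windows. The windows belong to 31 of the 40 genes. Irx3, read next, had no match in its window.

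**Figure D2:**
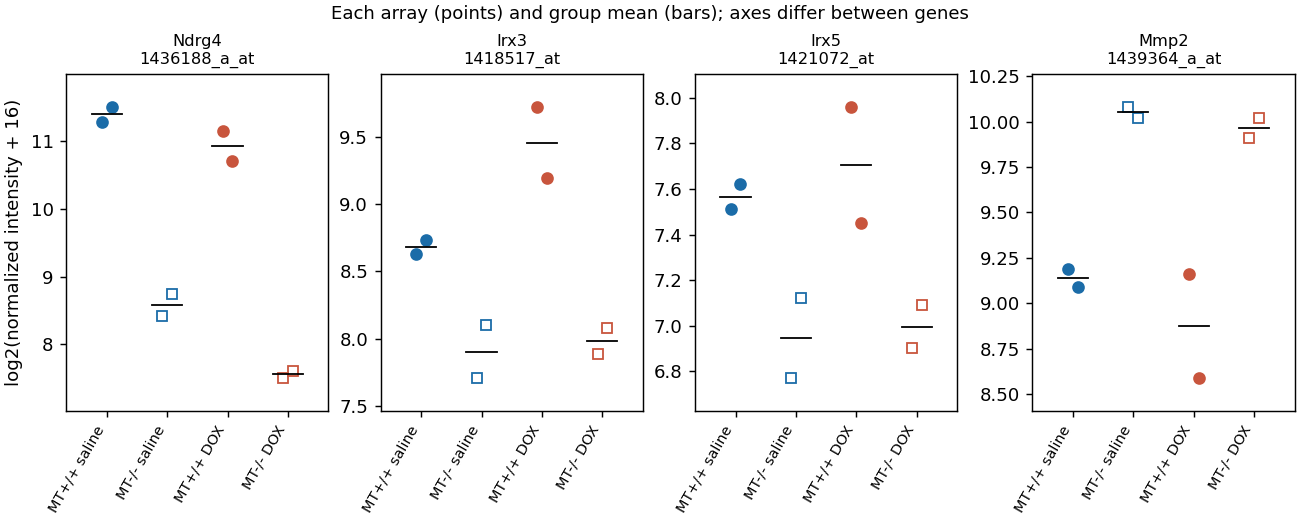
log2(normalized intensity + 16) of each array (points) with group means (bars) for neighbours that differed most by genotype. Ndrg4 and Irx3 are lower and Mmp2 is higher on all 4 MT-/- arrays, with no overlap.

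The Iroquois genes Irx3, Irx5 and Irx6 lie together and encode homeodomain transcription factors. In the heart Irx3 is known for its role in the ventricular conduction system and Irx5 for the gradient of repolarisation across the ventricular wall. Irx3 read 365 and 394 with MT+/+ saline and 190.3 and 273 with MT-/- saline. With DOX it read 818 and 572 in MT+/+ and 219.5 and 260.0 in MT-/-. All 4 MT-/- arrays lay below all 4 MT+/+ arrays.

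Under DOX, Irx3 differed by -1.47 ± 0.21 on the log2 scale (2.76-fold, limma adjusted p = 0.0311). Under saline the difference was -0.78 ± 0.21 (adjusted p = 0.363). Averaged over treatments it was -1.12 ± 0.14 (2.17-fold, adjusted p = 0.0121). The DOX call was lost in 7 of 18 other settings. Among these were the fits without either MT+/+ saline array, MT+/+ DOX replicate 1 or either MT-/- DOX array. The averaged call held in all 17, with differences of -1.25 to -0.99, but with 1 array left out it came close to the limit. The Irx3 change after DOX was 0.77 in MT+/+ and 0.08 in MT-/-. The difference of those changes, -0.69 ± 0.29, did not pass (limma, adjusted p = 1).

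Irx5 read 169.8 and 176 against 91.4 and 125 under saline, and 228 and 161 against 101 and 118 under DOX, MT+/+ first. Its groups did not overlap, but the averaged difference of -0.66 ± 0.13 did not pass the limit (limma, adjusted p = 0.0712). Irx6 read 88.4 to 125 on all arrays, its genotypes overlapped, and its difference was -0.09 ± 0.09 (adjusted p = 0.706). Of the 3 Iroquois genes, 1 therefore passed the test. Markers of the heart chambers were inspected beside them. No ventricular marker of 3 differed by genotype. Of 5 atrial markers, Nppa was higher in MT-/- by 1.2 (adjusted p = 0.0198), and none of the other 4 passed, with Sln at -0.62, Myl7 at -0.45, Myl4 at -0.06 and Bmp10 at -0.02. The summed atrial markers were 2025 to 3459 on the MT+/+ arrays and 4499 to 7739.7 on the MT-/- arrays. Most of that sum was Nppa, and without it the sums overlapped, at 669 to 1121 and 620.0 to 899. Their part in the Irx3 difference was not tested.

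Mmp2 encodes gelatinase A, a secreted protease of the extracellular matrix made largely by fibroblasts. Probe set 1439364_a_at read 534 and 504 with MT+/+ saline, 1046 and 1095 with MT-/- saline, 549 and 375 with MT+/+ DOX, and 945 and 1083 with MT-/- DOX. Probe set 1416136_at read 333 and 357, 570.1 and 735, 282 and 289, and 548 and 815 in the same order. On both probe sets all MT-/- arrays lay above all MT+/+ arrays.

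The averaged difference was 1.0 ± 0.13 on 1439364_a_at (2.0-fold) and 0.96 ± 0.13 on 1416136_at (1.95-fold), each with a limma adjusted p of 0.0134. Within treatments neither probe set passed, with differences of 0.91 and 0.77 under saline (adjusted p = 0.19 and 0.288) and 1.09 and 1.15 under DOX (adjusted p = 0.0728 and 0.0512). Under DOX, 1416136_at did pass with a pseudocount of 1, with no filter, without the trend or without MT-/- DOX replicate 1, and 1439364_a_at did without MT+/+ DOX replicate 1. The mean of all Mmp2 probe sets passed too. The averaged call on 1439364_a_at was lost without any 1 of the 4 saline arrays, with adjusted p up to 0.058. The call on 1416136_at was lost without MT+/+ saline replicate 1, either MT+/+ DOX array or MT-/- saline replicate 2, with adjusted p up to 0.0658. DOX itself left Mmp2 at -0.17 and -0.12, neither past the limit. None of the 8 fibroblast markers differed by genotype, with a median difference of -0.01 and a highest of 0.41. Their summed intensity was 16558 to 16569 with MT+/+ saline and 17656 to 20865 with MT-/- saline, and 10160.3 to 11203 and 10891 to 11558 after DOX. Of the 4 tested dendritic cell markers none passed by genotype, with Cd74 at 0.96 (limma, adjusted p = 0.0556), H2-Ab1 at 0.66, H2-Aa at 0.64 and Flt3 at -0.18. Their summed intensity was 2712 to 3932 with MT+/+ saline and 5059.7 to 6454 with MT-/- saline, and 834 to 928 and 1297 to 1714 after DOX. This sum was higher in MT-/- under both treatments. Flt3 was not, at -0.29 under saline and -0.06 under DOX, and Itgax was not tested. After DOX, Cd74 changed by -2.03, H2-Aa by -2.21, H2-Ab1 by -2.05 and Flt3 by 0.08. Mmp2 changed by -0.17 and -0.12. The part of dendritic cells in the Mmp2 difference was not tested.

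Within a single treatment, fewer neighbours passed. Under saline 2 of 58 member probe sets were called (3.45%, where 0.186% of all tested passed), both of Ndrg4 and both lower. Under DOX 3 were called (5.17%, where 0.283% of all tested passed), those of Ndrg4 and Irx3, all lower. The saline and DOX comparisons share no array. Across the 58 probe sets their differences correlated at r = 0.914, falling to 0.672 without Ndrg4 and to 0.266 without Ndrg4, Irx3, Irx5 and Mmp2. The value over all tested probe sets was 0.512. These are descriptions across probe sets, which share arrays and are not independent. The sign was the same in 34 of 58 (58.6%), against 63% of all tested. On the normalized scale, complete separation of the 4 MT-/- from the 4 MT+/+ arrays occurred for 9 member probe sets, or 15.5%, where 5.74% of all tested separated. Of the 9, 4 were higher and 5 lower. Separation within saline and within DOX, in the same direction, occurred for 14 member probe sets (24.1%) of 12 genes, where 13.8% of all tested did so.

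The genes closest to Mt1 and Mt2 did not pass the test. Bbs2, a subunit of the BBSome that carries proteins into cilia, is the nearest tested gene before the cluster and read 62.2 to 97.3 with MT+/+ saline and 84.3 to 99.4 with MT-/- saline, then 119 and 137 against 104 and 177 after DOX. Its genotypes overlapped and its difference was 0.17 ± 0.17 (limma, adjusted p = 0.733). Ogfod1, a hydroxylase of a ribosomal protein, read 282 to 329 on the MT+/+ arrays and 243 to 302 on the MT-/- arrays on its brighter probe set. Its difference was -0.21 ± 0.10 (adjusted p = 0.438), and its other probe set gave -0.20.

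Nudt21 encodes a subunit of the complex that chooses cleavage sites for polyadenylation. Its brightest probe set read 502 to 555 in MT+/+ and 463 to 602 in MT-/-, a difference of -0.02 ± 0.10. Its probe set 1428339_at read 112, 157, 166 and 169.7 in MT+/+ and 174, 174, 186 and 211 in MT-/-. These did not overlap, yet the difference of 0.29 ± 0.12 missed the limit (limma, adjusted p = 0.374).

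On the far side, Nup93, a scaffold protein of the nuclear pore, read 151 to 171 in MT+/+ and 151 to 158 in MT-/-, differing by -0.06 ± 0.07 (limma, adjusted p = 0.805). Slc12a3, the salt carrier of the kidney's distal tubule, read 111 to 157 and 86.5 to 117, differing by -0.25 ± 0.12 (adjusted p = 0.449). Herpud1 followed and differed by -0.14 ± 0.15 (adjusted p = 0.736). None of the 6 nearest tested members was called averaged over treatments, where 1.29% of all tested genes were. The called members lay 11 (Mmp2), 15 (Irx3) and 27 (Ndrg4) tested genes from the cluster. Any relation to distance was not tested.

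Averaged over treatments, the other neighbours with small p-values differed by less than 0.4 log2 units. Under saline alone some were further apart without passing the limma limit, among them Gnao1 1448031_at at -0.61 (adjusted p = 0.365) and Ciapin1 1441943_x_at at 0.52 (adjusted p = 0.365). Ciapin1, which helps assemble iron-sulfur clusters in the cytosol, was read highest by 1415910_s_at, at 466 to 723 in MT+/+ and 636 to 821 in MT-/-, a difference of 0.18 ± 0.12. Its probe set 1448140_at gave 0.39 ± 0.12 (limma, adjusted p = 0.214). Gnao1, the G protein subunit alpha-o, read 293 and 285 against 202 and 179.6 under saline and 161 and 191 against 131 and 184 under DOX on 1448031_at, MT+/+ first. The genotypes were apart under saline and overlapped under DOX, and the averaged difference was -0.38 ± 0.12 (adjusted p = 0.221).

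Cx3cl1, the chemokine fractalkine, had its lowest p on the dim probe set 1415803_at, which read 66.5 to 81.8 in MT+/+ and 79.3 to 100 in MT-/- (difference 0.26 ± 0.08, limma adjusted p = 0.242). Its 2 other tested probe sets gave -0.02 and -0.05, so its probe sets did not move together. Setd6, a lysine methyltransferase, read 139 to 195 in MT+/+ and 179 to 217 in MT-/- on 1428797_at (0.24 ± 0.10, adjusted p = 0.364).

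Aktip, an adaptor in vesicle transport, read 264 to 297 and 207 to 272 (-0.23 ± 0.10, adjusted p = 0.371). Fto, a demethylase of RNA, read 298 to 441 and 258 to 399 (-0.26 ± 0.11, adjusted p = 0.386). Got2, the mitochondrial aspartate aminotransferase, read 6060.1 to 6575 and 5388 to 6367 on its brightest probe set (-0.10 ± 0.06, adjusted p = 0.479) and -0.23 on 1430397_at (adjusted p = 0.387). In these 3 genes the genotypes overlapped over all 8 arrays, though on the normalized scale Fto and this brightest Got2 probe set were lower in MT-/- within each treatment. The listed chemokines, Ccl17, Ccl22 and Cx3cl1, ranged from -0.10 to 0.01 on their brightest probe sets, and none of the 3 was called. The carriers and Nup93 ranged from -0.25 to 0.06 over 4 genes, and the RNA production genes Polr2c, Nudt21 and Chd9 from -0.02 to 0.16, again with none called.

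The neighbours were then set against the rest of chromosome 8. Between the outermost members lay 26 further tested probe sets, of which only that of Mt1 passed (3.85%). Without Mt1 to Mt4, 0 of 22 passed by limma and 2 had an unadjusted p under 0.05 (9.09%). Among the 40 tested genes just before the first member, 2 of 65 probe sets passed (3.08%), those of Prdx2 and Rnaseh2a. Among the 40 just after the last member, 0 of 51 passed by limma and 8 had an unadjusted p under 0.05 (15.7%). Over all tested probe sets that share was 13%.

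**Figure D3:**
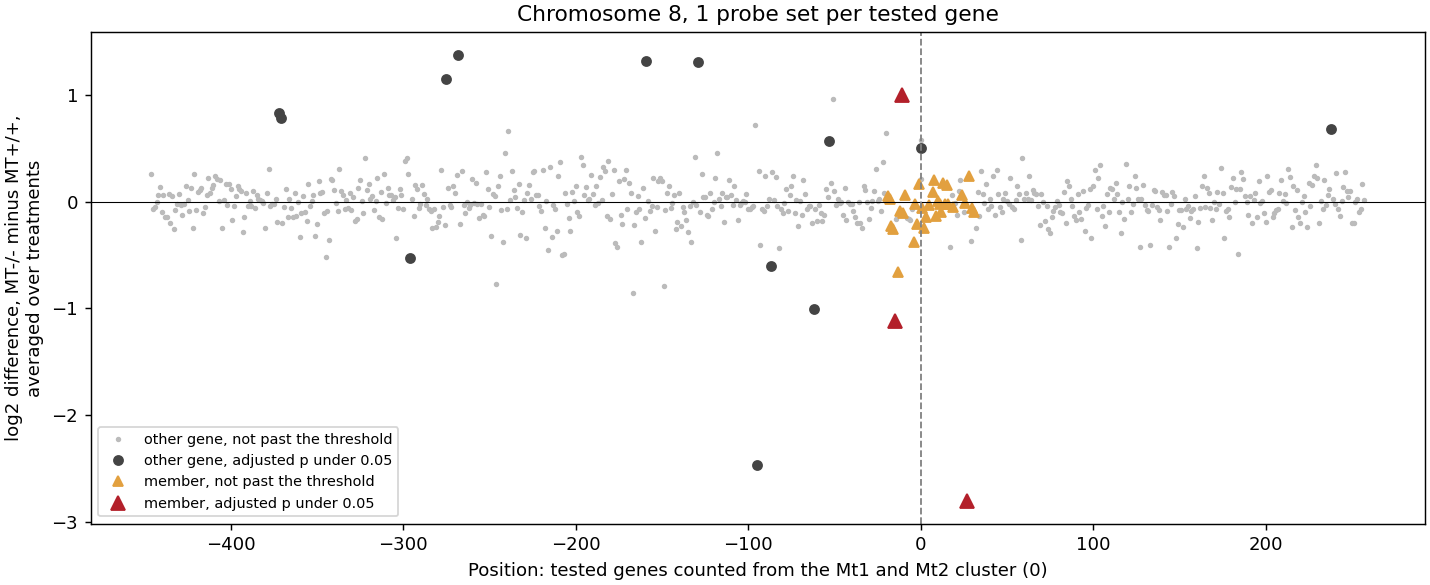
MT-/- minus MT+/+ averaged over treatments (log2) for the brightest probe set of each tested gene along chromosome 8, by gene order from the metallothionein cluster. Called genes lie mostly on the side before the cluster, which held at least 372 of the 706 tested genes. They include genes far from the cluster.

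Averaged over treatments, chromosome 8 outside the members held 27 called probe sets of 1086 (2.49%), 16 higher and 11 lower, from 22 genes. The share was 0.813% over tested probe sets not placed on this chromosome. With the members left out, chromosome 8 still ranked 1 of 20 chromosomes averaged over treatments, ahead of chromosome 4 at 1.95%, and it kept that rank in all 18 alternatives. Under saline alone it held 0.737%, below chromosome 16 at 0.799%, and under DOX alone 1.2%, above chromosome 4 at 0.6%. The calls were not confined to the genes beside Mt1 and Mt2. The smallest p-values outside the members belonged to Il15, a cytokine of natural killer and memory T cells, lower in MT-/- at -2.47 ± 0.13 on the log2 scale (limma, adjusted p = 6.37e-05) and 95 tested genes before the cluster. Calr3, 129 before, had 1 probe set at -0.87 and 2 at 1.17 and 1.31, so its probe sets went opposite ways. Prdx2, a peroxiredoxin 52 before, gave -1.46 ± 0.11 on 1 probe set (limma, adjusted p = 0.00046) and 0.18 on another. Pdlim3 and Frg1, 268 and 275 before, were higher in MT-/-, at 1.38 ± 0.11 and 1.15 ± 0.1 (limma, adjusted p = 0.00116 for each). After the cluster, the nearest called gene beyond Ndrg4 was Abcb10, 231 tested genes away, at -1.29 ± 0.12 on 1416403_at (adjusted p = 0.00187) while its brightest probe set gave -0.20 (adjusted p = 0.407).

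**Figure D4:**
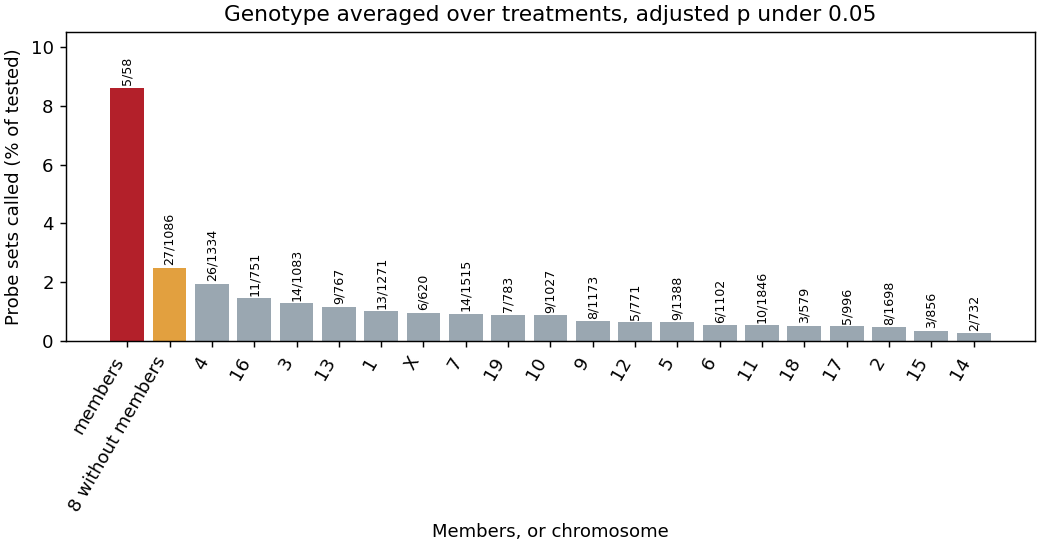
Percent of tested probe sets called for MT-/- against MT+/+ averaged over treatments (bars from 0) for the members and for each chromosome. The members stand at 8.62%, chromosome 8 without them at 2.49%, and the lowest chromosome, 14, at 0.273%.

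DOX changed the neighbours about as often as other genes. Averaged over genotypes, 8 of 58 member probe sets passed (13.8%, where 13.9% of all tested passed), 3 higher and 5 lower, from 6 genes. The 4 DOX arrays separated from the 4 saline arrays on 7 member probe sets, or 12.1%, where 18.4% of all tested did. Markers of several cell types were lower after DOX as well, with none higher in these lists. These were 6 of 8 fibroblast markers (median -1.45), 6 of 7 macrophage markers (-0.70), 3 of 4 tested dendritic markers (-2.04), 3 of 6 endothelial markers (-0.27) and 4 of 6 cardiomyocyte markers (-0.21). Their part in the changes of Ndrg4, Coq9, Lpcat2 and Gnao1 was not tested.

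The widest rise was that of Herpud1, a membrane protein of the endoplasmic reticulum that serves the degradation of misfolded proteins and is induced by endoplasmic reticulum stress. On 1448185_at it read 1370.2 and 1238 with MT+/+ saline and 1097 and 1094 with MT-/- saline. After DOX it read 2407 and 4042 in MT+/+ and 3161 and 3799 in MT-/-.

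All 4 DOX arrays for Herpud1 lay above all saline arrays. The change was 1.4 ± 0.15 (2.65-fold, limma adjusted p = 0.000774), made up of 1.17 in MT+/+ (adjusted p = 0.0284) and 1.64 in MT-/- (adjusted p = 0.00384). Probe set 1435626_a_at read 964 to 1181 with saline and 1924 to 3522 with DOX and rose by 1.30 ± 0.17 (2.46-fold, adjusted p = 0.00243). The Herpud1 response did not pass the test of a difference between genotypes (0.47 ± 0.30, adjusted p = 1).

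The upstream sequence of Herpud1, chr8:94386179-94386428 on the + strand of GRCm38.p6 (RefSeq), is shown because this gene rose most among the neighbours and the stretch holds a match to another form of the endoplasmic reticulum stress response element. Capitals mark it, 52 to 42 bases before the start.
Herpud1: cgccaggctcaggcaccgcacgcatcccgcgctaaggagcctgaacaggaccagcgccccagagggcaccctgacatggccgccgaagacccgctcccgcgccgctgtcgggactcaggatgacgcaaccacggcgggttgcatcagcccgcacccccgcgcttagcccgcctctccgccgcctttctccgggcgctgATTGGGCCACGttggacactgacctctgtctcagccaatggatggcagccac
This form, known as ERSE-II, was chosen after the sequence had been seen. It was found on either strand in 1 of 38 member windows (2.63%) and in 12 of 32851 windows overall (0.0365%). The first form, ERSE, was in 0 member windows and in 0.119% of all, and a window without a match says nothing about the factor.

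Among the genes that fell with DOX, Coq9, needed for coenzyme Q synthesis, read 4496 to 5029 with saline and 3768 to 3868 with DOX. Its treatments did not overlap, and it fell by 0.32 ± 0.06 on the log2 scale (limma, adjusted p = 0.00984). Lpcat2, an acyltransferase that makes platelet-activating factor, read 131 to 182 with saline and 109 to 118 with DOX on 1434945_at and fell by 0.43 ± 0.09 (adjusted p = 0.0135). Its brighter probe set 1440684_at gave 0.01 (adjusted p = 0.987), so the fall rests on 1 probe set, and its call was lost without MT+/+ DOX replicate 2 or MT-/- saline replicate 1 (adjusted p up to 0.062).

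Gnao1 fell by 0.49 ± 0.12 on 1448031_at (limma, adjusted p = 0.0257) while 1421152_a_at gave 0.19 (adjusted p = 0.181). The call was lost in 6 of 17 other settings, with adjusted p up to 0.271, among them the fits without either MT+/+ saline array, either MT+/+ DOX array or MT-/- saline replicate 1. Rbl2, the pocket protein p130 that restrains the cell cycle, rose. Its probe set 1418146_a_at read 123 to 144 with saline and 161 to 241 with DOX, a change of 0.50 ± 0.10 (adjusted p = 0.0141), and 1425981_a_at gave 0.48 ± 0.20 without passing (adjusted p = 0.168). The first call was lost without MT-/- saline replicate 1 (adjusted p = 0.0637).

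A further 4 neighbours had small p-values for DOX without passing. Ciapin1 gave 0.34 ± 0.10 on 1441943_x_at (limma, adjusted p = 0.0545). Arl2bp, a binding partner of the small GTPase ARL2, gave -0.34 ± 0.10 on 1429859_a_at, from 578 to 828 with saline to 492 to 599 with DOX (adjusted p = 0.0585). Bbs2 gave 0.57 ± 0.17 (adjusted p = 0.0608) and Irx3 0.43 ± 0.14 (adjusted p = 0.0887). Bbs2 separated by treatment, while Irx3 did not.

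**Figure D5:**
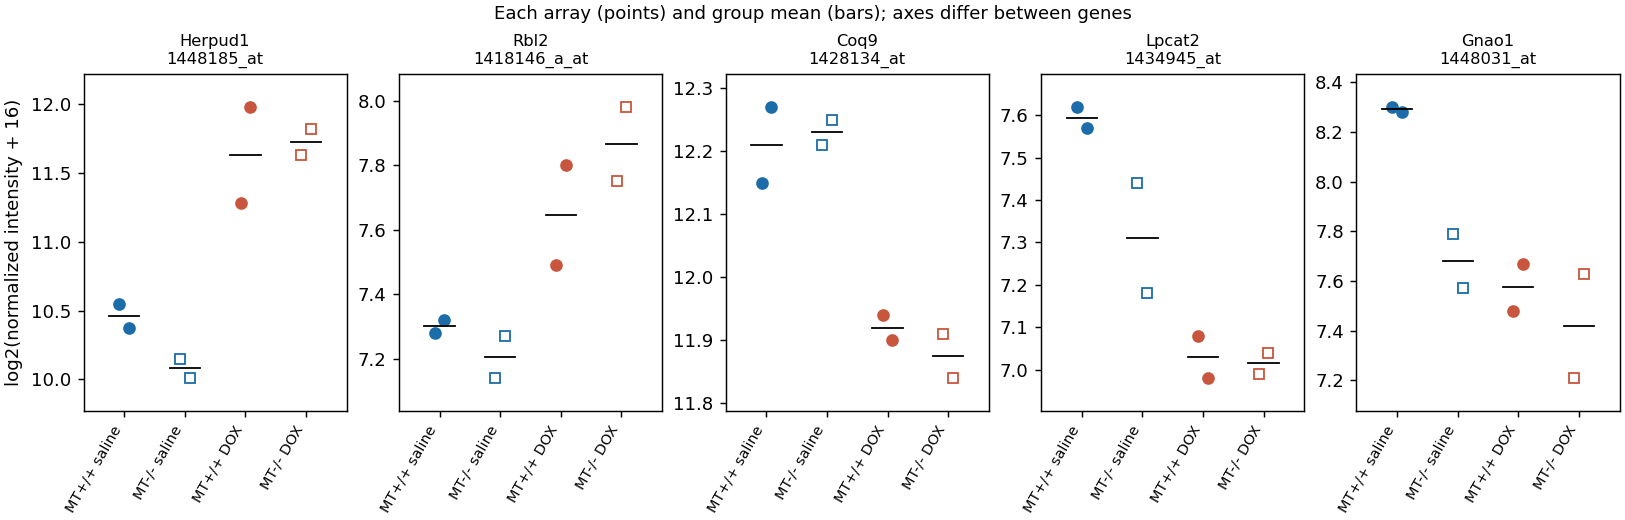
log2(normalized intensity + 16) of each array (points) with group means (bars) for neighbours changed by DOX, on axes that differ between genes. Herpud1 and Rbl2 are higher, and Coq9 and Lpcat2 lower, on all 4 DOX arrays, and Gnao1 overlaps.

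Whether DOX acted differently by genotype was tested as the interaction. By limma 0 of 58 member probe sets passed, where 0% of all tested passed. At an unadjusted p under 0.05 there were 2 of 58 member probe sets (3.45%), of Irx3 and Kifc3, and 573 of all 24751 (2.32%). Kifc3, a motor protein that moves toward the minus ends of microtubules, read 459 and 454 against 574 and 630.0 under saline and 524 and 574 against 443 and 412 under DOX, MT+/+ first. The MT-/- arrays were higher under saline and lower under DOX, with no overlap in either, and the interaction was -0.63 ± 0.19 (limma, adjusted p = 1).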

How the data were processed

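Per the submitters' processing notes the arrays were processed with GCOS 1.4. The deposited table holds 1 intensity per probe set and array on a linear scale. Any further scaling was not given in the sources used here. Of 45101 probe sets, 64 controls were left out. Intensities were quantile-normalized, 16 was added and log2 taken, and 24751 probe sets at or above the array median on at least 2 of 8 arrays were kept. Group means were fitted with limma 3.58.1 in R 4.3.3 (lmFit, eBayes with trend, 4 residual and 4.66 prior degrees of freedom). p-values were adjusted over all tested probe sets by Benjamini-Hochberg at 0.05. Fold changes are on the log2(value + 16) scale, which understates changes of dim genes, and ± gives the SE. The number of arrays limits the precision. The script was tested on simulated data.

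Symbols came from the platform annotation, 34945 probe sets having 1, 932 several and 9160 none. Of those with 1, 34741 matched RefSeq by Entrez number, which gave chromosome and gene order only. Arrays were grouped by their labels. Named members were those called by genotype, the 12 with the smallest genotype p, the 3 nearest to Mt1 and Mt2 on each side and the 10 with the smallest DOX p. A gene's own probe set is its brightest. Of other genes, the metallothioneins, the called genes of the flanking lists and those of chromosome 8 with the smallest p were named. The nearest called gene beyond Ndrg4 was named for its place. The members and lists were chosen with earlier results of these data known. Marker lists of cardiomyocytes, both chambers, fibroblasts, endothelium, macrophages and dendritic cells are given beside the results. Other scalings, pseudocounts, filters, probe set rules and omitted arrays were tried.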

Additional observations from a re-analysis of the deposited data

How the results depend on the processing

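Ndrg4 kept its genotype calls in every setting tried, with log2 differences on 1426615_s_at of -2.96 to -2.67 averaged over treatments and a highest limma adjusted p of 0.000338. With 1 array left out, member probe sets called by genotype numbered 3 to 5 averaged over treatments, against 5 with all arrays. There were 3 without MT+/+ saline replicate 1 or without MT-/- saline replicate 2, those of Ndrg4 and Irx3. With 1 array left out, calls numbered 2 to 2 under saline, 2 to 3 under DOX, 5 to 10 for the DOX effect (5 without MT-/- saline replicate 1) and 0 to 0 for the interaction. With the probe sets of a gene averaged, 1 gene was called under saline, 3 averaged over treatments and 3 for DOX, counted as genes and not as probe sets. Over all tested probe sets, 224 were called by genotype averaged over treatments, 88 to 202 with 1 array left out and 128 to 1202 in other settings. The share called by genotype was higher among members than among all in 18 of 18 alternatives averaged over treatments. Under saline this held in 19 of 19, and under DOX in 19 of 19. Each used the list chosen with earlier results known. For the DOX effect the share was higher in 14 of 18 alternatives, but the shares were close. They were 13.8% and 13.9% in the main fit. In the 10 settings with all arrays they were 8.57% to 27.6% of members and 7.09% to 27.1% of all.

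Replicate numbers were shared between groups, but the labels do not say that a number marks a shared litter or day, and only 2 numbers exist. Deviations of same-numbered arrays correlated at 0.36 to 0.542 between groups. With the replicate block, member calls were 4 under saline and 5 under DOX (both Mmp2 probe sets added in each, limma adjusted p of 0.0363 and 0.0405 under saline and 0.0113 and 0.00438 under DOX), 7 averaged over treatments (Irx5 and Ciapin1 added), 16 for DOX and 0 for the interaction. The highest shares in any setting were 6.9% of members and 0.844% of all under saline, and 8.62% and 1.55% under DOX. They were 12.1% and 4.86% averaged over treatments. For the DOX effect they were close, at 27.6% and 27.1%. No result changed direction after being called. The 19 dim member probe sets were left untested.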
